A study of Rattus norvegicus with 12 samples.

Results

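The integrated stress response is followed here through 10 genes, Atf4, Ddit3, Atf3, Trib3, Chac1, Ppp1r15a, Cebpb, Cebpg, Ddit4 and Sesn2, in rat INS-1E cells. They were taken by symbol from a table of 34034 gene symbols, and all 10 were among the 14324 genes with enough reads to be tested. These genes and the gene lists below were chosen with earlier results of these data known. Their counts beside the shares of all genes are therefore descriptions. INS-1E is an established line of rat insulinoma β-cells, wild type by its labels, so the libraries describe one tumour-derived line and not islet tissue. All cells were grown in serum-containing medium with 11 mM glucose, and polyadenylated RNA was sequenced from 4 groups of 3 libraries each. Untreated cells received no cytokine. IL-1βlow cells received IL-1β at 10 pg/ml for 72 h, with new cytokine every 24 h and no change of medium. CYT cells received IL-1β at 100 pg/ml together with IFN-γ at 5 ng/ml for 16 h. IL-1βlow + CYT cells went through the 72 h of IL-1β at 10 pg/ml first, their medium was renewed, and the 16 h CYT challenge followed. CYT and IL-1βlow therefore differed in dose, in duration and in the presence of IFN-γ, and the labels do not say how long untreated and IL-1βlow cells were kept after their last handling.

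The integrated stress response starts when one of several kinases phosphorylates the translation initiation factor eIF2. Protein synthesis then falls, while translation of the mRNA for the transcription factor ATF4 increases. ATF4 raises genes for amino acid supply and for further regulators, among them CHOP, which is encoded by Ddit3 and is linked to apoptosis when stress lasts. In β-cells, which carry a heavy load of proinsulin folding in the endoplasmic reticulum, this pathway is known as one branch of the unfolded protein response. The libraries measure mRNA only, so a change in ATF4 or CHOP protein made at the level of translation is outside these data.

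RefSeq promoters were found for 9 of the 10 genes, and Atf3 had no entry. The 250 bases upstream of the annotated start are given below for 4 genes. Their letters match response elements of C/EBP, ATF or CREB factors or, in Ddit3, an AP-1 element. The sequences are of build GRCr8, 5′ to 3′ on the strand of the gene, and capitals mark the matched element.

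Trib3: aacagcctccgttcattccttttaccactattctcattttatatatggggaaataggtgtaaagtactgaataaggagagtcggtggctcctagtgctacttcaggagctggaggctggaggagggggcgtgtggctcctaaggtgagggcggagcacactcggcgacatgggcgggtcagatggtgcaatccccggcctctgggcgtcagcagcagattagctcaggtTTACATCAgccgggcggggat

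Chac1: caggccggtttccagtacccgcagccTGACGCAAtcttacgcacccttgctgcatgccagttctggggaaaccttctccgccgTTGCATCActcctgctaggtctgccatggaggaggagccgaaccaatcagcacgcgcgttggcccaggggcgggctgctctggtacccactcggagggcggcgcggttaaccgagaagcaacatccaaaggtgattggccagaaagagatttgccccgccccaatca

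Ppp1r15a: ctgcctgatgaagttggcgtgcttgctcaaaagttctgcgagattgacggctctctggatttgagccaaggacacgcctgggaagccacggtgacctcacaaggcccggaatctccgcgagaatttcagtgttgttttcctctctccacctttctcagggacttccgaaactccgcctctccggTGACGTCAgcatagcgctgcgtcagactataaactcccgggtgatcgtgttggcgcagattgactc

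Ddit3: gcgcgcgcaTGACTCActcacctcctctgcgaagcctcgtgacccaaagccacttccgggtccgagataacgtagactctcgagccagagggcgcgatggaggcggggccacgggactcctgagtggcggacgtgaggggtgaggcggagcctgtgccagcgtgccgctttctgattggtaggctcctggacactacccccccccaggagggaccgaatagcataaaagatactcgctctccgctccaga

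The Trib3 stretch lies at chr3:161275534-161275783 on the minus strand. Its capitals are a C/EBP-ATF response element, TGATGNAA, read on the opposite strand as TTACATCA, between 21 and 14 bases before the start. The Chac1 stretch lies at chr3:126795881-126796130 on the plus strand, with the same element as TTGCATCA from 167 to 160 bases before the start. Chac1 also holds the element TGACGCAA from 224 to 217 bases before the start. The Ppp1r15a stretch, at chr1:105139597-105139846 on the minus strand, holds the palindromic cyclic AMP response element TGACGTCA from 66 to 59 bases before the start. The Ddit3 stretch, at chr7:65001445-65001694 on the plus strand, holds the AP-1 element TGANTCA as TGACTCA from 241 to 235 bases before the start.

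Both strands were searched in the same 250 bases of 33469 rat promoters. TGATGNAA was present in 3.4% of them and in 2 of the 9 promoters of these genes. TGACGTCA was present in 1.59%, and in 1 of the 9. TGACGCAA was present in 0.436% of all promoters, and TGANTCA in 6.34%, each in 1 of the 9. The promoters of Atf4, Cebpb, Cebpg, Ddit4 and Sesn2 held none of these patterns. No 2 of these 4 patterns can match letters that begin at the same base. The CCAAT box, CCAAT, was present in 34% of all promoters and in 5 of the 9, those of Cebpg, Chac1, Sesn2, Ddit3 and Ddit4. These matches describe the letters of a window and were not tested as binding sites.

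Libraries held between 15812640 and 20246806 counts, with a median of 17461925.5. Levels are given as CPM, the count per gene scaled to the size of its library with TMM factors, which removes differences in depth but not in gene length, so a level is compared between groups and not between genes. A gene passed when edgeR's quasi-likelihood test gave an adjusted p under 0.01 and the log2 fold change exceeded 0.6 in size for IL-1βlow against untreated cells, or 1 in size for every other comparison. These reads carry no molecular identifiers, and the lowest count of any of the 10 genes in a library was 31. The labels call the libraries biological replicates, and where cultures were not separate the p-values measure only the spread between libraries. In bulk RNA, fewer cells of a type and less RNA per cell cannot be told apart.

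All 12 markers of β-cells, from Ins1 to Pcsk2, were expressed, as the label states. Their summed level ran from 44044 to 50918 CPM in untreated, 39261 to 45776 in IL-1βlow, 14435 to 15307 in CYT and 20652 to 26265 CPM in IL-1βlow + CYT cells. This sum was thus lowest in the CYT group, where the stress genes were highest, and its part in the results below was not tested. Ins1 held 121909 to 431961 counts per library, Chga 64533 to 184247 and Ins2 22551 to 149518, against 159 to 673 for Nkx6-1. The β-cell sum is therefore mostly Ins1, Chga and Ins2 and does not describe each of the 12. Of 15 markers of other cell types, 4 had enough reads to be tested (Gcg, Ghrl, Cd68 and Adgre1), and Ptprc, Cpa1 and Prss1 had 0 counts in every library. Gcg held 415 to 6398 counts per library, against 16 to 45 for Ghrl, 5 to 22 for Cd68 and 0 to 58 for Adgre1. The sum of the 15 is therefore mostly Gcg. The summed level of the 15 was 188 to 369 CPM in untreated, 158 to 261 in IL-1βlow, 28.3 to 69.1 in CYT and 78.9 to 156 in IL-1βlow + CYT cells.

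CYT alone raised 9 of the 10 genes against untreated cells, where 10.0% of the 14324 genes tested were called higher. After IL-1βlow preconditioning all 10 were called lower than in cells given CYT alone, where 5.92% of genes were. IL-1βlow by itself changed none of the 10 past the thresholds, where 0.265% of genes were called higher and 0.168% lower. In preconditioned cells given CYT, 3 of the 10 (Ddit3, Trib3 and Chac1) were still above untreated cells, where 3.85% of genes were. Together the 10 genes took 0.0509 to 0.0616% of all counts in the untreated, IL-1βlow and IL-1βlow + CYT libraries, and 0.214 to 0.242% in the CYT libraries.

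**Figure D1:**
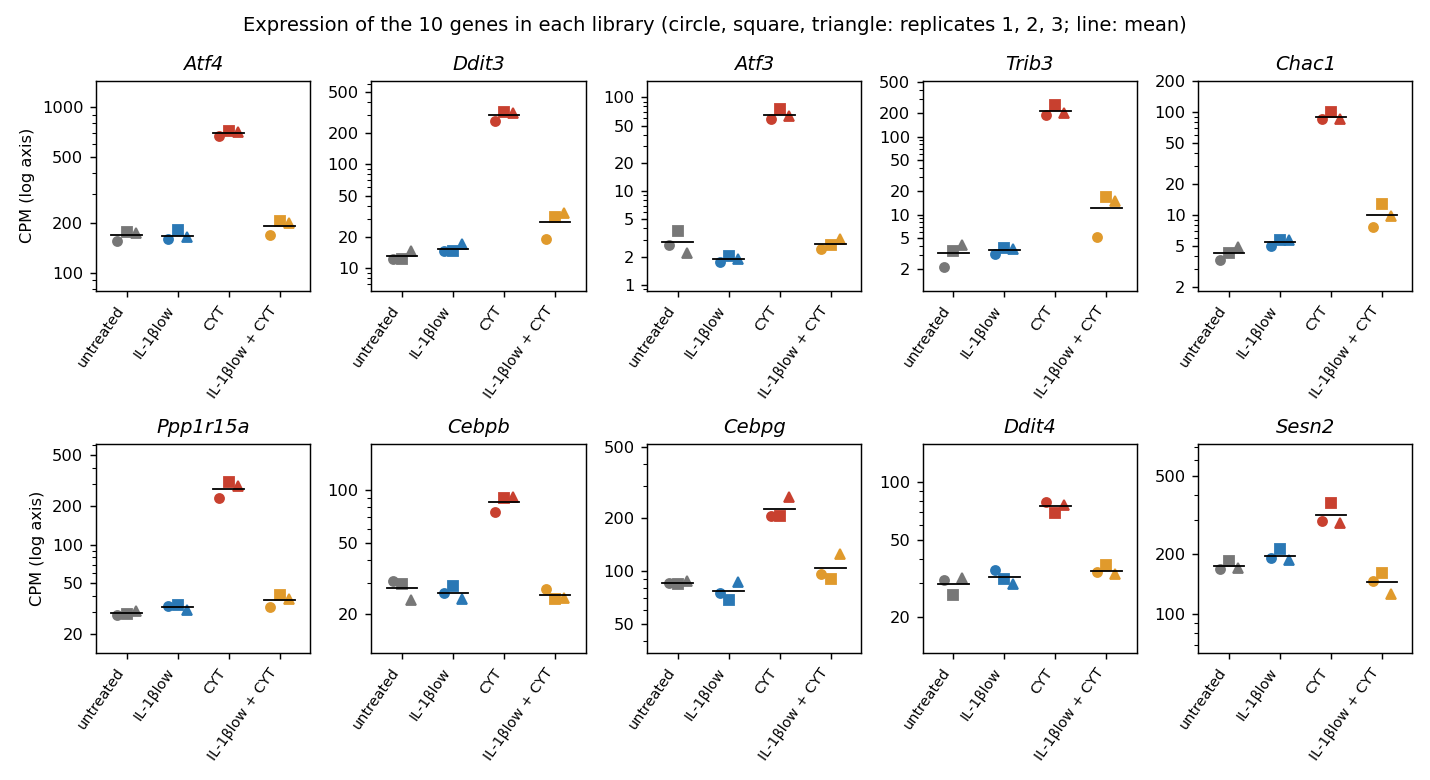
Level of each of the 10 genes in every library, in CPM on a log axis, by group; circle, square and triangle are replicates 1, 2 and 3 and the line is the mean. In every panel the 3 CYT libraries lie above all 9 others, and Ddit3, Trib3 and Chac1 in IL-1βlow + CYT cells lie between the untreated and the CYT libraries.

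Atf4, the transcription factor at the head of the programme, was measured at 156, 176 and 174 CPM in the 3 untreated libraries and at 159, 180 and 164 CPM in the 3 IL-1βlow libraries. The CYT libraries stood at 668, 721 and 708 CPM, and the IL-1βlow + CYT libraries at 169, 204 and 199 CPM. Only the CYT libraries stood apart, with no overlap with any other group, while the other groups overlapped. Atf4 rose 4.14-fold with CYT (log2 fold change 2.05, SE 0.09, adjusted p = 2.6e-10). After preconditioning it was 3.67-fold lower than with CYT alone (log2 fold change -1.87, SE 0.09, adjusted p = 9e-09). Against untreated cells, IL-1βlow + CYT gave a log2 fold change of 0.18 (SE 0.09, adjusted p = 0.18), a ratio of 1.13 with a 95% interval of 0.991 to 1.29.

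Ddit3, which encodes CHOP, stood at 12.1, 12.3 and 14.7 CPM in untreated cells, 14.5, 14.7 and 17.0 CPM in IL-1βlow cells, 265, 319 and 314 CPM in CYT cells, and 19.0, 31.3 and 33.7 CPM in IL-1βlow + CYT cells. The IL-1βlow + CYT libraries lay above every untreated and IL-1βlow library and far below every CYT library. The CYT rise was 23.0-fold (95% interval 17.5 to 30.2, adjusted p = 1.1e-10). With preconditioning Ddit3 was 10.7-fold lower than with CYT alone (log2 fold change -3.42, SE 0.17, adjusted p = 1e-08) and 2.15-fold above untreated cells (log2 fold change 1.11, SE 0.18, adjusted p = 0.00029). This last call rests on the third IL-1βlow + CYT library, without which the log2 fold change was 0.96 and under the minimum. RefSeq places Ddit3 across 62 bases of Mars1, the methionyl-tRNA synthetase, and across 3930 bases of the locus LOC134479709, which has no row in the count table. The strand setting of the counting is not given in the sources used here, so reads in these overlaps may be uncertain.

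Atf3, a stress-induced factor of the same bZIP class, had few reads outside CYT cells. It was measured at 2.69, 3.73 and 2.19 CPM in untreated, 1.74, 2.02 and 1.91 CPM in IL-1βlow, 58.5, 74.5 and 62.7 CPM in CYT, and 2.43, 2.69 and 3.09 CPM in IL-1βlow + CYT cells. Every IL-1βlow library was below every untreated library, and the IL-1βlow + CYT libraries fell within the untreated range. The CYT rise was 22.6-fold (log2 fold change 4.50, SE 0.17, adjusted p = 7.6e-11), and preconditioned cells were 23.8-fold lower than CYT cells (log2 fold change -4.57, SE 0.18, adjusted p = 1.4e-09). Against untreated cells the log2 fold change in IL-1βlow + CYT was -0.07 (adjusted p = 0.84, ratio interval 0.71 to 1.28). The gene model of Atf3 overlaps that of Garin4, which had 0 counts in every library.

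The C/EBP partners of ATF4 and CHOP moved less. Cebpb, which encodes the bZIP factor C/EBPβ, stood at 28.1 ± 3.56 CPM (SD, n = 3) in untreated, 26.4 ± 2.17 in IL-1βlow, 85.1 ± 8.53 in CYT and 25.5 ± 1.94 CPM in IL-1βlow + CYT cells. Its lowest CYT library, at 75.3 CPM, was above the highest library of any other group, 30.8 CPM, and the other 3 groups overlapped. It rose 3.02-fold with CYT (log2 fold change 1.60, SE 0.12, adjusted p = 3.3e-08) and was 3.34-fold lower with preconditioning (log2 fold change -1.74, SE 0.12, adjusted p = 6.3e-08). Cebpg, whose product C/EBPγ pairs with ATF4 on amino acid response genes, stood at 85.2 ± 1.51 CPM in untreated, 76.4 ± 9.39 in IL-1βlow, 223 ± 33.9 in CYT and 103 ± 18.7 CPM in IL-1βlow + CYT cells. The highest IL-1βlow + CYT library, at 124 CPM, was below the lowest CYT library, at 203 CPM, and all 3 were above the highest untreated library, 86.9 CPM. Cebpg rose 2.62-fold with CYT (adjusted p = 6.4e-07) and fell by 1.11 on the log2 scale with preconditioning (SE 0.13, adjusted p = 1.1e-05).

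The feedback genes of the pathway gave a wider range. Trib3 encodes a pseudokinase that is induced by ATF4 and CHOP and dampens both. Its levels were 2.12, 3.43 and 4.01 CPM in untreated, 3.08, 3.74 and 3.64 CPM in IL-1βlow, 188, 257 and 200 CPM in CYT, and 5.11, 16.7 and 15.0 CPM in IL-1βlow + CYT cells. The rise with CYT was 67.6-fold (95% interval 40.2 to 113, adjusted p = 3e-09), the largest of the 10 genes. Preconditioned cells stood 17.4-fold below CYT cells (log2 fold change -4.12, SE 0.30, adjusted p = 1.5e-07) and 3.89-fold above untreated cells (log2 fold change 1.96, SE 0.35, adjusted p = 0.00087). The first IL-1βlow + CYT library was low beside the other 2, and the coefficient of variation in that group was 51.1%. Without that library the log2 fold change against untreated cells was 2.31, and over every alternative tried it ran from 1.67 to 2.31.

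Ppp1r15a encodes GADD34, the phosphatase subunit that removes the phosphate from eIF2 and so ends the response. It was measured at 28.5, 28.7 and 30.5 CPM in untreated, 33.1, 34.1 and 30.8 CPM in IL-1βlow, 230, 307 and 286 CPM in CYT, and 33.0, 41.0 and 37.6 CPM in IL-1βlow + CYT cells. All libraries of both preconditioned groups were above the highest untreated library. The CYT rise was 9.39-fold (log2 fold change 3.23, SE 0.12, adjusted p = 3.5e-11), and preconditioned cells were 7.37-fold lower than CYT cells (log2 fold change -2.88, SE 0.11, adjusted p = 1.4e-09). IL-1βlow + CYT against untreated gave a log2 fold change of 0.35 (SE 0.11, adjusted p = 0.038), past neither threshold.

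Chac1, which encodes an enzyme that degrades glutathione, followed Ddit3 and Trib3 in keeping part of its rise. Its levels were 3.72, 4.32 and 4.92 CPM in untreated, 5.08, 5.77 and 5.80 CPM in IL-1βlow, 86.1, 100.0 and 85.0 CPM in CYT, and 7.66, 13.0 and 9.81 CPM in IL-1βlow + CYT cells. No 2 groups overlapped, and the order was untreated, IL-1βlow, IL-1βlow + CYT and CYT. CYT raised Chac1 20.9-fold (log2 fold change 4.38, SE 0.18, adjusted p = 1.1e-10), and with preconditioning it was 8.85-fold lower than in CYT cells (log2 fold change -3.15, SE 0.16, adjusted p = 1e-08). It remained 2.36-fold above untreated cells (log2 fold change 1.24, SE 0.18, adjusted p = 0.00013). The first 2 groups in that order did not differ by the test (log2 fold change 0.36, adjusted p = 0.41).

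Ddit4 and Sesn2 encode REDD1 and Sestrin2, both inhibitors of the growth kinase mTORC1. Ddit4 stood at 29.5 ± 3.20 CPM in untreated, 32.0 ± 2.84 in IL-1βlow, 74.6 ± 4.83 in CYT and 34.7 ± 1.97 CPM in IL-1βlow + CYT cells (SD, n = 3). It rose 2.53-fold with CYT (log2 fold change 1.34, SE 0.10, adjusted p = 6.9e-08) and was 2.15-fold lower with preconditioning (log2 fold change -1.10, SE 0.10, adjusted p = 1.2e-06). The lowest CYT library, 69.4 CPM, was above every other library, of which the highest was 36.9 CPM.

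Sesn2 was the gene that CYT alone moved least. It stood at 168, 186 and 171 CPM in untreated, 192, 213 and 187 CPM in IL-1βlow, 297, 364 and 290 CPM in CYT, and 147, 161 and 126 CPM in IL-1βlow + CYT cells. Its 1.81-fold difference with CYT did not reach the minimum size (log2 fold change 0.86, SE 0.11, adjusted p = 8.7e-06). In preconditioned cells it was 2.19-fold lower than in CYT cells (log2 fold change -1.13, SE 0.11, adjusted p = 1.4e-06) and every IL-1βlow + CYT library was below every untreated library. The difference from untreated cells, -0.27 on the log2 scale, did not pass (SE 0.11, adjusted p = 0.086). RefSeq places a non-coding locus, LOC134487007, across 590 bases of Sesn2, and it has no row in the count table.

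The CYT libraries did not overlap the untreated libraries, on the high side, in all 10 genes and in 34.0% of all genes. Their median log2 fold change was 2.64, beside -0.04 over all genes. In IL-1βlow + CYT against CYT, the groups did not overlap, on the low side, in all 10 genes and in 27.6% of all genes. The median was -2.38, beside 0.02 over all genes. The CYT libraries enter both of these comparisons, so the values stand side by side and are not independent.

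**Figure D2:**
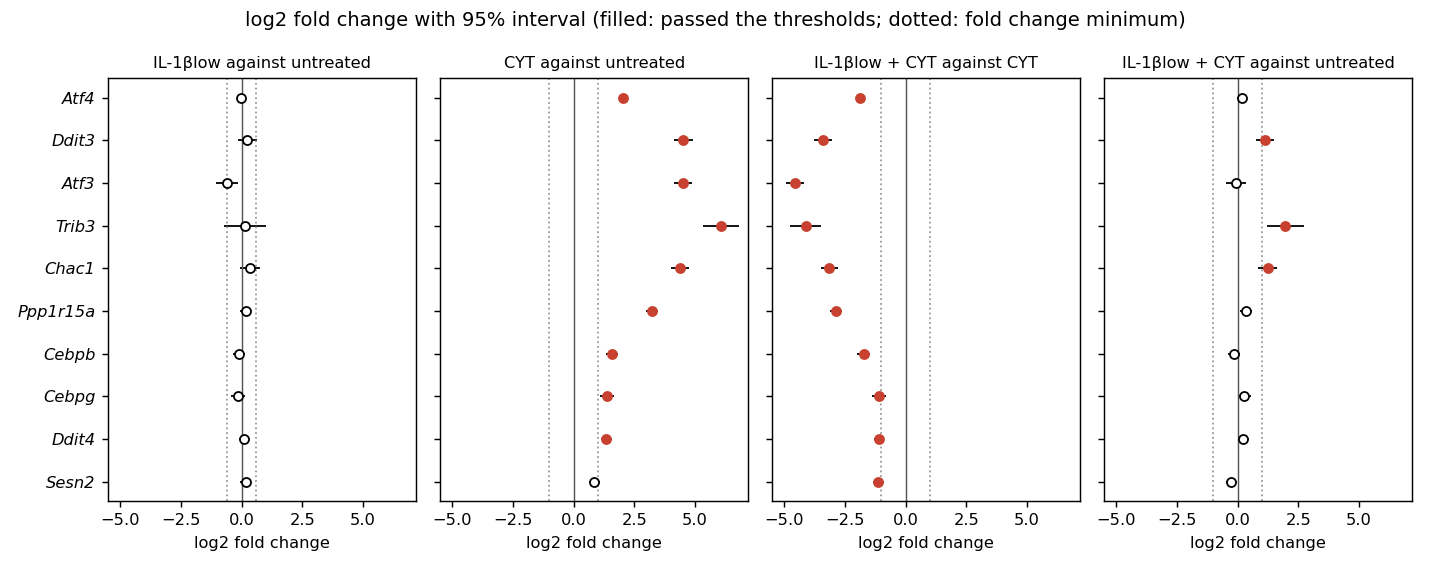
The log2 fold change of the 10 genes in 4 comparisons, with 95% intervals; filled points passed the adjusted p and the fold change minimum, which is the dotted line. For CYT against untreated 9 points are filled, for IL-1βlow + CYT against CYT all 10, and for IL-1βlow + CYT against untreated Ddit3, Trib3 and Chac1.

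To ask whether the CYT response itself differed with preconditioning, the interaction of IL-1βlow and CYT was tested. The interaction was negative and passed in 9 of the 10 genes, where 5.20% of all genes were called lower. It was largest in Trib3 (log2 fold change -4.25), Atf3 (-3.97) and Ddit3 (-3.66). Cebpg, at -0.96 (SE 0.19, adjusted p = 0.0014), was just short of the minimum size. Leaving out single libraries brought it past the minimum in 5 of 12 cases.

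IL-1βlow alone gave 0 calls among the 10 genes by edgeR's quasi-likelihood test. The log2 fold changes ran from -0.60 in Atf3 (adjusted p = 0.22) to 0.36 in Chac1. DESeq2 and edgeR's exactTest also called none, and Atf3 alone had an unadjusted p under 0.05, as did 1982 of the 14324 genes. Without overlap, 3 genes were higher in IL-1βlow cells (Chac1, Ppp1r15a and Sesn2), where 13.0% of genes were, and 1 was lower (Atf3), where 10.6% were. For Atf4 the ratio to untreated cells was 0.994 with a 95% interval of 0.871 to 1.13, and for Ddit3 it was 1.18 with an interval of 0.903 to 1.54. For Trib3, with few reads in both groups, the interval was wide, from 0.596 to 2.00.

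In IL-1βlow + CYT against untreated cells, libraries did not overlap in 6 genes that were higher, against 20.2% of all genes. These were the 3 called genes and Ppp1r15a, Cebpg and Ddit4. Libraries also did not overlap in 1 gene that was lower, Sesn2, against 17.1% of all genes. Measured from IL-1βlow cells instead, as the effect of CYT within preconditioned cells, Trib3 was the 1 gene called higher, where 2.92% of genes were (log2 fold change 1.83, SE 0.35, adjusted p = 0.002). Ddit3, at 0.87 (adjusted p = 0.0029), and Chac1, at 0.88 (adjusted p = 0.0028), were under the minimum of 1 on the log2 scale. The call for Trib3 was lost without the first IL-1βlow or the second IL-1βlow + CYT library, and all 3 genes were called without the first IL-1βlow + CYT library.

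The part of the CYT rise that remained after preconditioning was expressed as the log2 fold change of IL-1βlow + CYT over that of CYT, both against untreated cells. It is a share of the log2 change and not of the rise in CPM, and its size and the order of genes differ between these scales. In mean CPM, Trib3 went from 3.19 in untreated to 215 in CYT and 12.3 in IL-1βlow + CYT cells, and Cebpg from 85.2 to 223 and 103. Trib3 kept 32.2%, Chac1 28.3% and Ddit3 24.5%. Cebpg kept 19.7%, Ddit4 17.5%, Ppp1r15a 10.8% and Atf4 8.63%. Atf3, Cebpb and Sesn2, the last of which was not called with CYT, kept none, at -1.56, -8.93 and -31.8%. Over all 1439 genes called higher with CYT the median was 40.1%, with quartiles of 17.6 and 66.9%. All 10 shares were below that median, and the untreated libraries enter both terms of every share. With IL-1βlow cells as the baseline of the preconditioned group, Cebpg kept 31.1%, Trib3 30.1%, Chac1 20.1%, Ddit3 19.2% and Atf4 9.07%. Atf3 then kept 11.9%, Ddit4 8.75% and Ppp1r15a 5.84%, while Cebpb stood at -3.19 and Sesn2 at -52.1%. The order of the genes thus changed with the baseline, with Cebpg in place of Trib3 at the top.

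The shares varied between libraries. Each library was set against the means of all untreated and all CYT libraries, not against the libraries of its own number. In the first IL-1βlow + CYT library Trib3 kept 11.7%, Chac1 18.8%, Ddit3 12.1% and Atf4 0.382%, and in the second 39.5, 36.1, 28.0 and 13.5%, in that order of genes. In the third they kept 37.0, 26.9, 30.4 and 11.6%. Cebpg varied most of the genes called higher with CYT, at 11.96, 4.93 and 39.6% in the first, the second and the third library, so its share rests on the third, where it was the highest of the 10. Chac1 was the highest in the first library and Trib3 in the second. Ddit4 ran from 13.0 to 24.5%, Ppp1r15a from 5.46 to 15.1%, Atf3 from -4.39 to 3.03%, Cebpb from -13.1 to -0.781% and Sesn2 from -54.9 to -13.6%. The first library was the lowest of its group in 6 of the 10 genes and the second the highest in 6. Over all 1439 genes the libraries kept a median of 35.2, 43.0 and 40.0%. Among the CYT libraries the first was lowest in 7 genes and the second highest in 7. The first was also lowest in 6 genes among the untreated and in 5 among the IL-1βlow libraries.

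**Figure D3:**
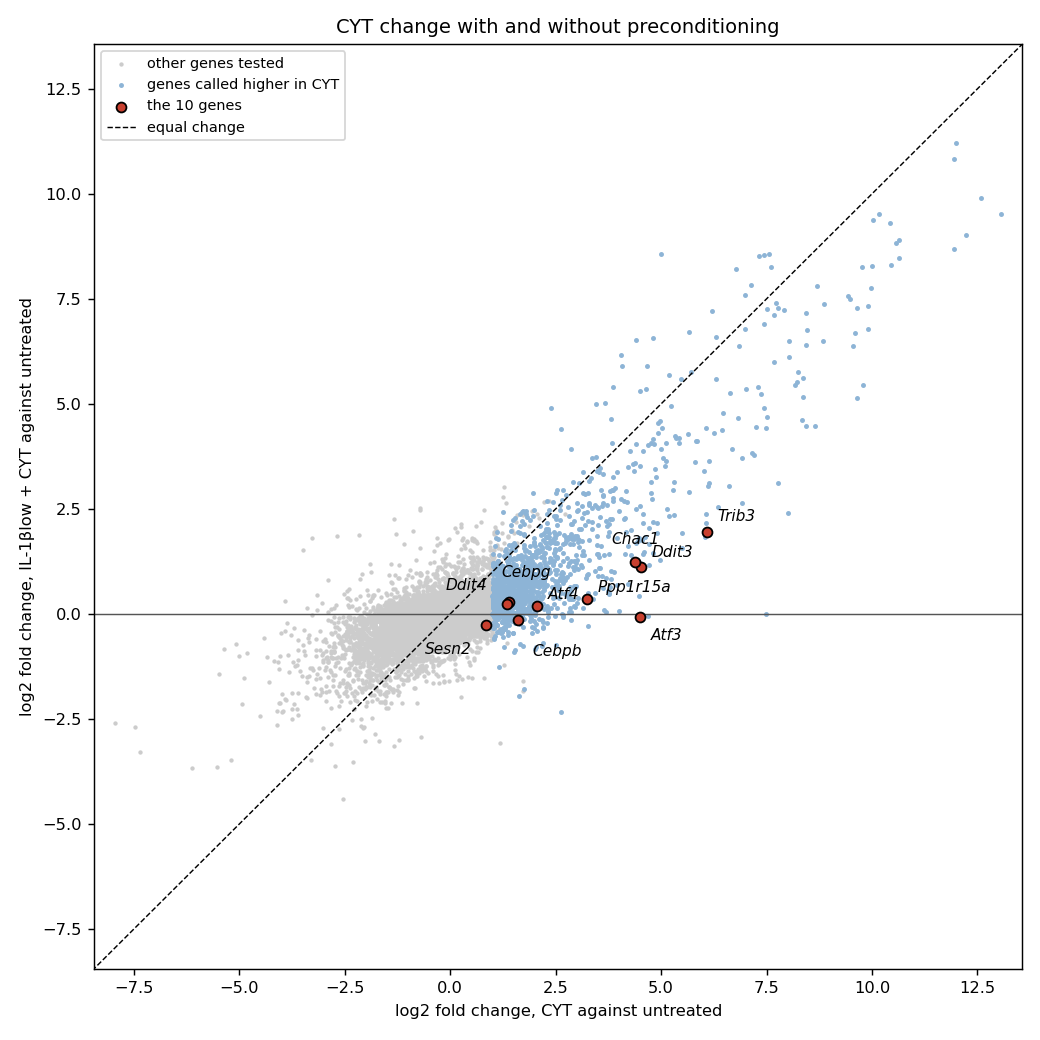
Each point is a gene tested, by its log2 fold change in CYT (horizontal) and in IL-1βlow + CYT (vertical), both against the same untreated libraries; blue points were called higher with CYT and the dashed line is an equal change. The 10 genes, in red, lie below the line, and Atf3 lies at -0.07 on the vertical axis for 4.50 on the horizontal.

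Upstream of ATF4, none of the mRNAs of the 4 eIF2 kinases passed the thresholds with CYT or after preconditioning. Eif2ak3, which encodes PERK, the kinase of the endoplasmic reticulum, stood at 37.1 ± 5.10 CPM in untreated, 35.9 ± 4.73 in IL-1βlow, 52.2 ± 11.7 in CYT and 31.7 ± 4.02 CPM in IL-1βlow + CYT cells (SD, n = 3). With CYT it gave a log2 fold change of 0.49 (adjusted p = 0.014) and -0.72 for IL-1βlow + CYT against CYT (adjusted p = 0.0016), neither past the thresholds. With CYT the values were 0.38 for Eif2ak1, the haem-regulated kinase, -0.24 for Eif2ak2, the kinase activated by double-stranded RNA, and -0.16 for Eif2ak4, the amino acid sensor GCN2. Of 15 kinases, eIF2 and eIF2B subunits and regulators, 2 were called higher with CYT, a share near the 10.0% of all genes. They were Eif2b3, a subunit of the eIF2B exchange factor (1.23, SE 0.13, adjusted p = 1.4e-06), and Oma1, a mitochondrial protease that relays stress to the pathway (1.02, SE 0.14, adjusted p = 2.6e-05). Eif2b3 was also the 1 gene of this list called lower after preconditioning, where 5.92% of all genes were (log2 fold change -1.18, adjusted p = 4.4e-06).

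Paralogues of the 10 genes did not all share their pattern. Of 12, 10 were tested, 4 of them were called higher with CYT, where 10.0% of genes were, and Cebpe and Ddit4l did not pass the filter on low counts. Atf5, the closest relative of Atf4, stood at 169 ± 16.8 CPM in untreated, 469 ± 82.1 in CYT and 171 ± 23.5 CPM in IL-1βlow + CYT cells (SD, n = 3). It rose with CYT (log2 fold change 1.47, SE 0.13, adjusted p = 3.4e-07) and was lower with preconditioning (log2 fold change -1.45, SE 0.13, adjusted p = 1e-06). Jdp2, a repressor related to Atf3, rose from 3.81 ± 0.458 to 31.9 ± 5.50 CPM with CYT (log2 fold change 3.06, adjusted p = 1.9e-09) and stood at 11.6 ± 1.42 CPM after preconditioning (log2 fold change against CYT -1.46, adjusted p = 3e-06).

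Jdp2, Cebpd and Trib1 were the 3 of 10 paralogues called higher in IL-1βlow + CYT than in untreated cells, where 3.85% of genes were. For Jdp2 the log2 fold change against untreated cells was 1.60 (SE 0.17, adjusted p = 6e-06). Cebpd, an acute phase factor, stood at 7.00 ± 0.430 CPM in untreated, 51.4 ± 4.31 in CYT and 26.3 ± 3.25 CPM in IL-1βlow + CYT cells (SD, n = 3), still above untreated cells (log2 fold change 1.91, adjusted p = 6.2e-08). Trib1, a relative of Trib3, stood at 25.4 ± 4.15, 68.5 ± 11.5 and 99.4 ± 9.07 CPM in the same groups, with a log2 fold change of 1.97 against untreated cells (adjusted p = 3.2e-07). Against CYT alone, Trib1 gave 0.54 (adjusted p = 0.0081), under the minimum and opposite in sign to Trib3. The sestrins also differed, since Sesn3 went from 143 ± 3.24 CPM in untreated to 78.3 ± 7.16 in CYT and 178 ± 18.4 CPM in IL-1βlow + CYT cells. Sesn3 was called higher in IL-1βlow + CYT against CYT (log2 fold change 1.19, SE 0.09, adjusted p = 2.8e-07), and its change with CYT, -0.87, was under the minimum. Sesn1 gave -0.99 with CYT (adjusted p = 0.00012), and Trib2, Chac2, Ppp1r15b and Cebpa passed in neither of these comparisons, with log2 fold changes from -0.12 to 0.57 with CYT.

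The known targets of ATF4 and CHOP were higher with CYT and lower after preconditioning in most cases. Of 17 tested genes for amino acid synthesis and transport, 15 were called higher with CYT, where 10.0% of all genes were. The median of the 17 was 1.70 on the log2 scale, beside -0.04 over all genes. In IL-1βlow + CYT against CYT 15 were called lower, where 5.92% of all genes were, with a median of -1.77 beside 0.02. The largest rises with CYT were in Cth (3.18, SE 0.40, adjusted p = 9.5e-06), for cysteine synthesis, in the glycine transporter Slc6a9 (2.84, SE 0.15) and in Mthfd2 (2.71, SE 0.12), a mitochondrial folate enzyme. Cth had few reads, with means of 0.215 CPM in untreated, 2.02 in CYT and 0.586 CPM in IL-1βlow + CYT cells. It exceeded 1 CPM only in CYT libraries, so it was tested only through the group where it is high. The largest falls were in Slc6a9 (-2.70), Pycr1 (-2.26), for proline synthesis, and Slc3a2 (-2.26), the heavy chain of amino acid exchangers. None of the 17 was called in IL-1βlow + CYT against untreated cells, where 3.85% of all genes were called higher and 2.14% lower. Their median was 0.11 on the log2 scale, and Mthfd2, at 0.48 (adjusted p = 0.0062), was under the minimum size. In IL-1βlow against untreated cells none was called either, where 0.265% of all genes were called higher and 0.168% lower.

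Of 12 tRNA synthetases 7 were called higher with CYT, where 10.0% of all genes were, at a median of 1.39 on the log2 scale. With preconditioning 8 were called lower than with CYT alone, where 5.92% of all genes were, with a median of -1.26. Sars1 (2.43, SE 0.11), Cars1 (a 4.46-fold rise) and Mars1 (1.59, SE 0.08) rose most, and these 3 also had the largest falls with preconditioning (-2.04, -1.81 and -1.45). Of 12 other tested targets of ATF4 or CHOP 7 were called higher with CYT (median 1.67) and 8 lower with preconditioning (median -1.36). The shares of all genes were again 10.0% and 5.92%. The 5 not called with CYT were Vegfa (0.74), Vldlr (0.72), Bcl2l11 (-0.14), Ndrg1 (-0.22) and Ero1a (-0.38). Bcl2l11 (0.46) and Ndrg1 (0.29) were higher in IL-1βlow + CYT than in CYT cells, past neither threshold. Nupr1, a stress-induced chromatin protein, gave 3.16 with CYT and -3.03 with preconditioning. The stress cytokine gene Gdf15 gave 3.02 and -2.64, and Gadd45b, of the growth arrest family, gave 2.96 and -2.79. Its relative Gadd45a was the 1 gene of all these lists called in IL-1βlow against untreated cells. Over all genes 0.265% were called higher and 0.168% lower in that comparison. Gadd45a was only just past the minimum of 0.6 (log2 fold change 0.61, SE 0.10, adjusted p = 0.0085). It stayed higher in IL-1βlow + CYT than in untreated cells (1.54, adjusted p = 5.6e-08), where 3.85% of genes were.

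The other branches of the unfolded protein response, which run through the sensors IRE1 and ATF6, were described by 20 genes. Of these, 1 was called higher with CYT, where 10.0% of all genes were, and 5 were called lower, where 11.6% were. Their median log2 fold change was -0.60, beside -0.04 over all genes. The gene called higher was Ern1, which encodes IRE1 itself, from 55.1 ± 3.06 to 274 ± 27.1 CPM (SD, n = 3, log2 fold change 2.31, SE 0.10, adjusted p = 2.4e-10). Preconditioned cells given CYT stood at 57.8 ± 6.37 CPM. Atf6, which encodes the other sensor, stood at 77.5 ± 1.46 CPM in untreated, 153 ± 6.53 in CYT and 72.1 ± 3.54 CPM in IL-1βlow + CYT cells. Its rise with CYT was just under the minimum (log2 fold change 0.98, SE 0.07, adjusted p = 3.8e-08). The largest falls were in Edem1 (-1.54, SE 0.09), Creld2 (-1.47, SE 0.12) and Dnajc3 (-1.27, SE 0.15), which encode proteins of quality control and folding. In IL-1βlow + CYT against CYT, Ern1 (-2.24), Atf6 (-1.09) and Dnajb9 (-1.05) were called lower, Edem1 (1.03) was called higher, and the median was 0.05. Over all genes 5.92% were called lower and 6.54% higher in that comparison.

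**Figure D4:**
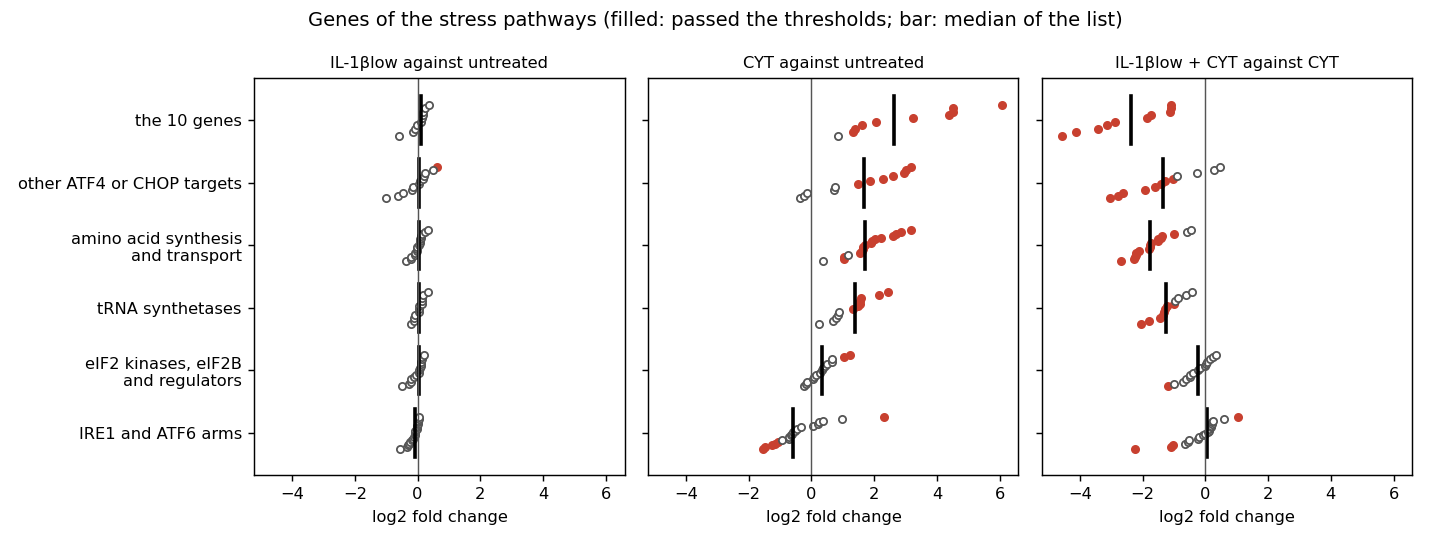
The log2 fold change of every tested gene of 6 lists in 3 comparisons; filled points passed the thresholds and the bar is the median of the list. In CYT against untreated the medians run from -0.60 for the IRE1 and ATF6 arms to 2.64 for the 10 genes, and in IL-1βlow against untreated a single point, Gadd45a, is filled.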

How the data were processed

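RNA sequencing was performed on 12 INS-1E libraries, 3 in each of 4 groups. TruSeq RNA libraries were made from TRIzol RNA. Per the labels, read quality was examined with FastQC, reads were assigned to genes of mRatBN7.2 with featureCounts, and R 4.3.3 was used. The deposited values are raw counts per gene symbol, which the authors had not normalised, and a total of 0 sample columns were left unused. Whether counting used strand is not given in the sources used here.

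Counts were analysed in R 4.3.3 with edgeR 4.0.16, limma 3.58.1 and DESeq2 1.42.0. Only genes whose CPM exceeded 1 in 2 or more libraries were tested, TMM factors were calculated, and all libraries entered 1 quasi-likelihood fit (common biological coefficient of variation 0.123, residual df 8). The study's own exactTest was an alternative. Adjusted p-values follow Benjamini-Hochberg over 14324 genes. Each standard error is the log2 fold change divided by the root of its F statistic. On simulated counts for CYT against untreated, with 200 of the 14324 genes changed by 1.5 on the log2 scale, 99% were recovered with 0 false calls. Every simulated gene had the common biological coefficient of variation, and genes with the lowest counts were left unchanged. The simulation therefore checks the calculation and does not show the recovery of genes with a wider spread or few reads.

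Replicates differed by more than sampling noise (chi-square over its degrees of freedom, 6.67 to 25.3). Replicate numbers come from the labels. Deviations of same-numbered libraries correlated at a mean of 0.191 over 18 pairs, beside -0.094 over 36 pairs of other numbers. They correlated above 0.1 in every pair for IL-1βlow + CYT with CYT and with IL-1βlow. In pairs with untreated cells the values ran from -0.188 to 0.181, and the third replicate was negative with each other group.

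The 10 genes and the gene lists were chosen with earlier results of these data known. Named genes were the 10, the eIF2 kinases, the paralogues and, of each other list, the 3 called genes with the largest rise and fall with CYT and in IL-1βlow + CYT against CYT. Genes most like Atf4 or Ddit3 were the 5 closest in each case. Other genes are named where a count of few rests on them, and so are the other targets not called with CYT. The alternatives were RLE size factors, DESeq2, exactTest, other count filters, 2-group fits, the replicate block, an adjusted p of 0.05 with no fold minimum, and each library left out. Promoters were matched by symbol to RefSeq (GRCr8).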

Additional observations from a re-analysis of the deposited data

Results flagged for a closer look

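By the interaction term of edgeR's quasi-likelihood fit, the response to CYT differed past the thresholds with IL-1βlow preconditioning in 9 of the 10 genes. Over all genes 5.20% were called lower. The thresholds were an adjusted p under 0.01 and a log2 fold change above 1 in size. Cebpg, at -0.96 (adjusted p = 0.0014), was under the minimum size. On the log2 scale the interaction was -4.25 in Trib3, -3.97 in Atf3, -3.66 in Ddit3, -3.50 in Chac1 and -3.04 in Ppp1r15a. It was -1.87 in Atf4, -1.65 in Cebpb, -1.30 in Sesn2 and -1.22 in Ddit4. Groups of 3 libraries are too small for a test of single outlying values, and none was made.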

How the results depend on the processing

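Of the values recomputed for the 10 genes under the alternatives, 1152 kept their direction and their side of the thresholds, 15 newly passed, 4 no longer passed and 9 turned sign. The replicate block changed no call among the 10 genes, with 9 called for CYT against untreated, 3 for IL-1βlow + CYT against untreated and 1 for IL-1βlow + CYT against IL-1βlow. The last of these counts moved from 1 to 0 in a fit of the 2 groups only and to 5 at an adjusted p of 0.05 with no fold minimum, and it ran from 0 to 3 when 1 library was left out. IL-1βlow against untreated turned sign for Atf4, from -0.01, with RLE size factors (0.0042), DESeq2 (0.0041) and no filter (0.010), and ran from -0.071 to 0.025 with 1 library left out (0.022 and 0.014 without untreated replicates 2 and 3, 0.025 and 0.0081 without IL-1βlow replicates 1 and 3). For Trib3 it turned to -0.11 without untreated replicate 1, in a range of -0.11 to 0.33 with 1 library left out. Atf3 in IL-1βlow + CYT against untreated turned to 0.15 without untreated replicate 2, in a range of -0.23 to 0.15, and its kept share to 11.9% with IL-1βlow cells as the baseline. The cause was not tested. Over all genes, IL-1βlow against untreated gave 62 calls, but 229 with no filter, 141 with the replicate block, 139 with DESeq2, 137 with exactTest and 193 at an adjusted p of 0.05 with no fold minimum, and 21, 29 and 16 without untreated replicates 1, 2 and 3 and 18 and 23 without IL-1βlow replicates 1 and 2. At 0.05 with no fold minimum the counts rose from 3096 to 8926 for CYT against untreated, 1785 to 7267 for IL-1βlow + CYT against CYT, 858 to 3124 and 556 to 1855 for IL-1βlow + CYT against untreated and against IL-1βlow, and 1530 to 5337 for the interaction. With 3 libraries a group and few reads, the interval for Trib3 in IL-1βlow cells leaves changes of up to 2.00-fold undetected.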

Other observations

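Genes with a pattern like that of Ddit3 or Atf4 were looked for among 11487 other genes, by the root mean square difference of their log2 levels, each taken from its untreated mean, over the 9 treated libraries. This is a description, since the libraries are shared. The 5 closest to Ddit3 were Maff (difference 0.338), a small Maf factor, Oas1a (0.416), an interferon-induced antiviral enzyme, Ciart (0.440), a circadian repressor, Inf2 (0.513), a formin, and Rasd2 (0.544), a Ras-like GTPase. Maff stood 4.55 above its untreated mean in CYT and 1.48 above it in IL-1βlow + CYT cells on the log2 scale, and Oas1a stood 4.31 and 1.60 above.

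The 5 closest to Atf4 were LOC120094334 (0.127), LOC100911177 (0.136), the cationic amino acid transporter gene Slc7a1 (0.144), Bhlhe41 (0.145), a circadian repressor, and Psph (0.167), for the last step of serine synthesis. Slc7a1 stood 2.21 above its untreated mean in CYT cells and 0.10 above it in IL-1βlow + CYT cells, and Psph 1.89 and 0.09. With group means in place of single libraries, 4 of the 5 genes closest to Ddit3 were again among the 5, and 2 of the 5 closest to Atf4.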
